A study of Mus musculus with 2 samples.

Results

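The granule proteases of mouse mast cells were compared in the distal colon of wild-type and interleukin-9 (IL-9) transgenic mice. The 7 genes examined were the chymase genes Mcpt1, Mcpt2, Mcpt4 and Cma1, the tryptase genes Tpsab1 and Tpsb2, and the carboxypeptidase gene Cpa3, out of 12393 genes on the array. They were chosen by name, and each probe set (the group of short probes that reads a transcript) annotated to them was used. There were 8 such probe sets, 2 of them for Tpsb2, and 0 were annotated to several genes. The control group was wild-type mice labelled FVB (the series text writes TVB), and the other group was mice with an IL-9 transgene, labelled Tg5. Each group was 1 Affymetrix array of total RNA pooled from 4 mice, all bred under specific pathogen-free conditions. The promoter that drives the transgene, the number of founder lines and the sex and age of the mice are not stated in the labels. With 1 array per group no test is possible, no value below has a replicate check, and no error or p-value is given.

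Mast cells store these proteases in secretory granules, bound to the acidic glycosaminoglycan chains of the proteoglycan serglycin, and release them on activation. Mouse mast cells are commonly divided into a mucosal type, which lies in the epithelium and lamina propria of the gut and is marked by Mcpt1 and Mcpt2, and a connective tissue type, which lies in the submucosa, muscle and skin and is marked by Mcpt4, Cma1, the tryptases and Cpa3. IL-9 is a type 2 cytokine and a growth and differentiation factor of mast cells. The question put to the 2 pools is how each granule protease gene stands in colon exposed to transgenic IL-9.

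Before the values, the sequence upstream of the genes is shown, so that 3 chymase genes of the same cluster can be set beside Cpa3, which lies on another chromosome. RefSeq promoter windows of GRCm38.p6 matched 4 of the 7 genes, and the 250 bases before the annotated start are printed. Mcpt2, Tpsab1 and Tpsb2 had no matched window. Capitals mark every match, on either strand, to sites of 4 kinds. A GATA factor site was searched as AGATAA and its close spelling AGATAG. The same site was also searched as TGATAA and its close spelling TGATAG. The promoter element called the TATA box was searched as TATAAA. The site of STAT factors was searched as TTCNNNGAA, and the E-box of the mast cell factor MITF as CATGTG. None of the matches overlapped another. The windows are Mcpt1 at chr14:56017714-56017963 (plus strand), Mcpt4 at chr14:56062311-56062560 (minus strand), Cma1 at chr14:55944676-55944925 (minus strand) and Cpa3 at chr3:20242182-20242431 (minus strand).
Mcpt1: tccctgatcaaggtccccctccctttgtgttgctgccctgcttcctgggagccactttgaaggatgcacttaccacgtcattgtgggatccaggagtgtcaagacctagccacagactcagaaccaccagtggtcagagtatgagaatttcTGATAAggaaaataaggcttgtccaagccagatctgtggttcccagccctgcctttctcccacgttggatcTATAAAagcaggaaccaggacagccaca
Mcpt4: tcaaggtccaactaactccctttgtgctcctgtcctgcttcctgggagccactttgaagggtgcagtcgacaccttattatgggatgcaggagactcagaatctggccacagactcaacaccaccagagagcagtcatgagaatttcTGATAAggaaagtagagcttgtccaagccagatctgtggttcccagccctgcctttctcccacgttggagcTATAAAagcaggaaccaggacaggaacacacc
Cma1: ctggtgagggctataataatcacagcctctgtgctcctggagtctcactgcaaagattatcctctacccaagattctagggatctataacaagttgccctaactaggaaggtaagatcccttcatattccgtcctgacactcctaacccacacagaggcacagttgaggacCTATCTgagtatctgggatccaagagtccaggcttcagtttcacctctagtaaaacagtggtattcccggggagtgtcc
Cpa3: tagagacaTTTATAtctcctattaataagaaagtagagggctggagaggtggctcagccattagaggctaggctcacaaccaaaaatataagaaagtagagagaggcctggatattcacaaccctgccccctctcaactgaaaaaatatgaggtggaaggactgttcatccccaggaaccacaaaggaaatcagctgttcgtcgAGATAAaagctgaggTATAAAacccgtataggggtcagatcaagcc

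The upstream sequences of Mcpt1 and Mcpt4 were identical at 213 of 260 aligned columns (81.9%) and shared an unbroken run of 53 bases. Those of Mcpt1 and Cma1 were identical at 51.3% of aligned columns, and those of Mcpt1 and Cpa3 at 48.1%. In Mcpt1 the GATA match TGATAA began 99 bases and the TATA box 28 bases before the start, and in Mcpt4 they began 103 and 32 bases before it. Cpa3 had a GATA match (AGATAA) from 46 bases and a TATA box from 31 bases before the start, and a further TATA match on the opposite strand from 242 bases. Cma1 had 1 GATA match, on the opposite strand (printed as CTATCT), from 79 bases before the start. Of 32851 annotated windows of this length, 26.5% held a GATA match, 12.4% the TATA box, 7.02% the STAT site and 12.3% the MITF E-box, and the 4 sequences held no match to the last 2 kinds. These matches describe the letters only, not binding. FVB sequence was not used here.

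Intensities below were made with MAS5, which gives each probe set a linear value after an estimated background and mismatch signal are taken off. Values under 19.8, the 40th percentile of all probe sets on the 2 arrays, are taken as not distinguishable from background and were raised to this floor before a ratio was formed. A gene above the floor on at least 1 array is called measured. Where wild type lay at the floor, the ratio is a lower bound and is written as at least N-fold.

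All 7 genes were measured. In the transgenic pool 4 of them were at least 2-fold higher, namely Mcpt1, Mcpt2, Mcpt4 and Cpa3, and 0 were at least 2-fold lower. For comparison, 64 (0.767%) of the 8346 measured genes passed 2-fold upward in the transgenic pool, and 51 (0.611%) passed it downward. The log2 ratio (transgenic over wild type) had a median of 1.78 over the 7 genes and 0.04 over all measured genes. As background for counts of positive log2 ratios given below, 4673 of the 8346 measured genes had a positive one. The 4 chymase genes had a median log2 ratio of 3.91, with 3 of 4 at least 2-fold higher. The 2 tryptase genes had a median of 0.27, with 0 of 2 at that threshold. Of the ratios of the 7 genes, 4 are bounds, so the median of all 7 genes and the chymase and the tryptase medians are lower bounds too. In these pools of whole tissue, a difference in the number of mast cells and a difference in protease RNA per mast cell cannot be told apart.

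**Figure D1:**
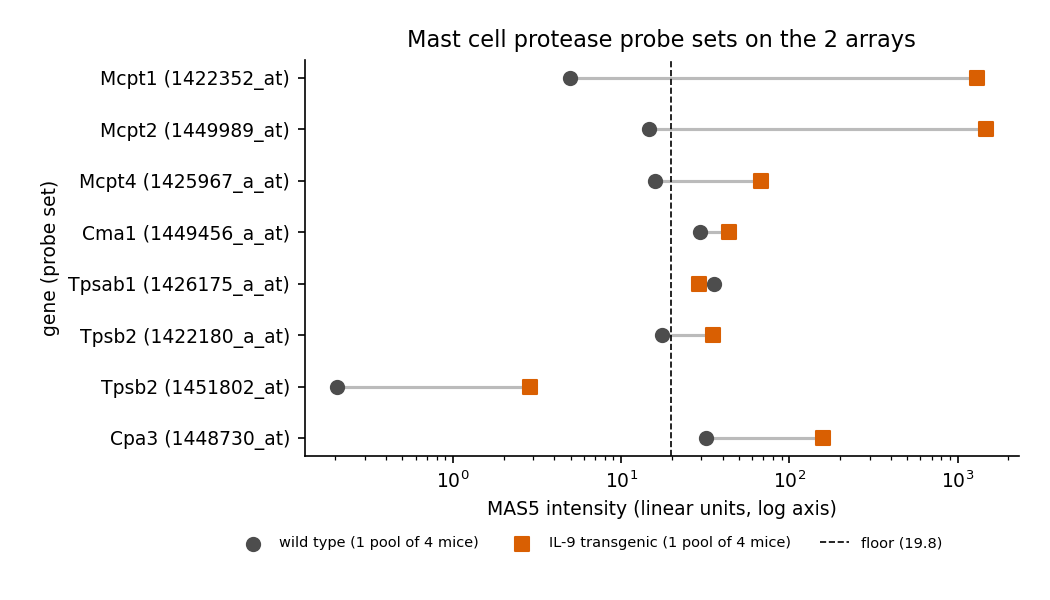
MAS5 intensity (linear units on a log axis) of each of the 8 probe sets, with the wild-type pool as circles, the transgenic pool as squares and the floor of 19.8 as a dashed line. Mcpt1 and Mcpt2 lie below the floor in wild type and above 1000 in the transgenic pool, Tpsab1 is slightly lower in the transgenic pool, and the second Tpsb2 probe set is below the floor on both arrays.

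Mcpt1 encodes a chymotrypsin-like protease of mucosal mast cells that is released into gut lumen and blood during worm infection. Wild-type colon read 4.96 on its probe set (1422352_at), and transgenic colon read 1297. The wild-type value was below the floor, so Mcpt1 was at least 65.5-fold higher in transgenic colon. Mcpt2 encodes its close relative in the same cells, whose substrates are poorly known. The Mcpt2 probe set (1449989_at) had 14.6 in wild type and 1472 in the transgenic pool, at least 74.3-fold higher. Both genes of the mucosal type thus went from below the floor to well above it.

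Mcpt4 encodes the main chymotrypsin-like protease of connective tissue mast cells. Its probe set (1425967_a_at) had 15.9 in wild type and 68.0 in the transgenic pool, at least 3.43-fold higher. With the floor at the 60th percentile of intensities (55.1) the log2 ratio of Mcpt4 was 0.30, below the 2-fold threshold. The suffix of this probe set marks it as reading several transcript forms, and probe sequences were not used here. Signal from the related Mcpt1 and Mcpt2 transcripts on the Mcpt4 probe set was not tested.

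Cma1 encodes mast cell protease 5, an α-chymase of connective tissue mast cells that in rodents cuts like an elastase and is stored together with Cpa3. Cma1 (1449456_a_at) had 29.2 in wild type and 43.6 in the transgenic pool, a log2 ratio of 0.58. Both values lay above the floor, and the ratio of 1.49-fold was below the threshold. Among the 2110 measured genes whose brighter array was no higher than 50, the central 95% of log2 ratios lay between −0.67 and 0.74, so Cma1 lay inside the range of genes of like brightness.

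The tryptases are trypsin-like proteases that assemble on heparin in the granules of connective tissue mast cells. Tpsab1, mast cell protease 7, had 35.7 in wild type and 29.1 in the transgenic pool (1426175_a_at). Its log2 ratio of −0.30 was the only negative ratio among the 7 genes, and it too lay inside the range of genes of like brightness. RefSeq annotates Tpsab1 as a transcribed pseudogene in the C57BL/6J reference; the FVB allele was not analysed here.

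Tpsb2, mast cell protease 6, was read by 2 probe sets. The brighter one (1422180_a_at) had a wild-type value of 17.5, under the floor, and a transgenic value of 35.3, at least 1.78-fold higher. The other (1451802_at) had 0.205 and 2.85, below the floor on both arrays, and gives no ratio. The log2 bound of 0.83 was just above the middle 95% of genes of like brightness, and with a floor at the 20th percentile (5.58) the log2 ratio was 1.01, at the threshold.

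Cpa3 encodes the zinc carboxypeptidase of mast cell granules, which trims C-terminal residues of peptides that chymases have cut. Cpa3 (1448730_at) had 32.0 in wild type and 158 in the transgenic pool. This was the only gene of the 7 that was above the floor on both arrays and at least 2-fold higher, at 4.95-fold. Among the 3832 measured genes whose brighter array lay between 50 and 200, 34 (0.887%) were at least 2-fold higher and the central 95% of log2 ratios lay between −0.59 and 0.72. In the order of the 7770 genes above the floor on both arrays, from the highest log2 ratio down, Cpa3 took position 4, Cma1 position 306 and Tpsab1 position 6860.

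The 3 genes read by probe sets without a suffix for several transcripts, Mcpt1, Mcpt2 and Cpa3, were all at least 2-fold higher. Of the 4 read by probe sets with such a suffix, Mcpt4 was at least 2-fold higher and Cma1, Tpsab1 and Tpsb2 were not. As a technical measure, different probe sets of 1 gene were compared for the 2847 genes that had more than 1 of them with signal over the floor in each pool, and their log2 ratios had a pooled SD of 0.28. This SD holds no spread between mice or pools. The SD concerns genes above the floor on both arrays, and so not the bounds of 4 of the protease genes. The other 3 had log2 ratios of 2.31 for Cpa3, 0.58 for Cma1 and −0.30 for Tpsab1. It was pooled over genes of every brightness above the floor, and was not computed for genes as dim as Cma1 and Tpsab1.

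**Figure D2:**
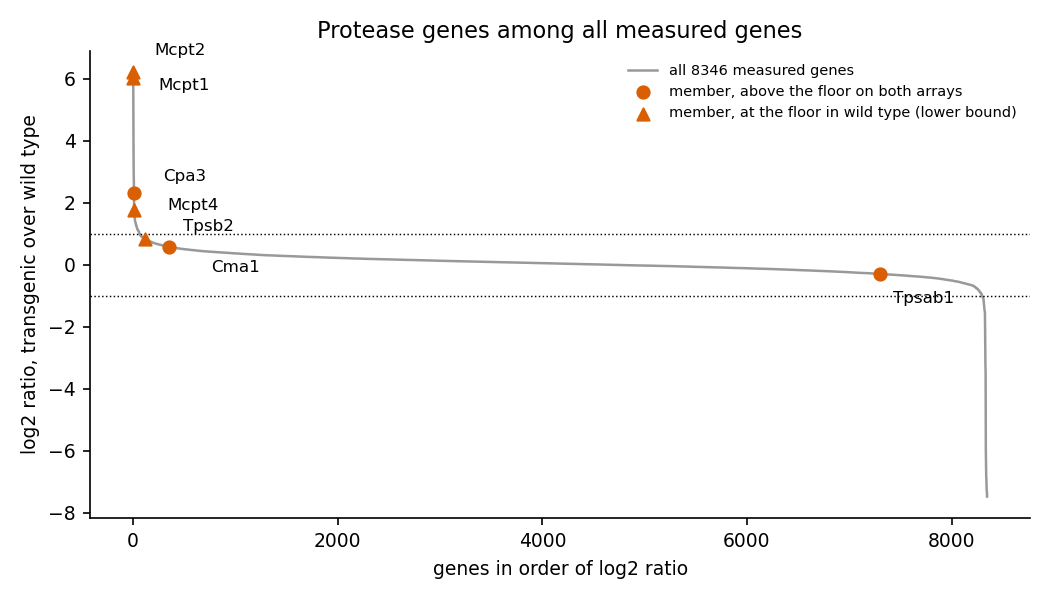
Log2 ratio of transgenic over wild type for all 8346 measured genes in descending order (grey line), with the 7 protease genes marked as circles (above the floor on both arrays) or triangles (at the floor in wild type, a lower bound) and dotted lines at 2-fold. Mcpt2, Mcpt1, Cpa3 and Mcpt4 lie at the upper end above the 2-fold line, with Tpsb2 (bound of 0.83) and Cma1 (0.58) below it. Tpsab1 lies at −0.30 on the flat part.

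The genes closest in ratio were taken as those next in the order of log2 ratios over the 2 arrays, which with 2 arrays measures likeness by 1 number only. Next to Mcpt2 and Mcpt1 stood Il9 itself, at 5.14 in wild type and 862 in the transgenic pool (at least 43.6-fold), and then Itln1, an intelectin that binds microbial sugars (1.86 and 286, at least 14.4-fold). Since these are bounds against the same floor, the true order among them is not known. Next to Cpa3 stood Fcer1a (log2 bound 2.76), the immunoglobulin light chain gene Iglv1 (log2 ratio 2.89) and the B cell receptor gene Cd79a (1.92). Next to the bound of Mcpt4 stood Cd79a, H2-DMa of the MHC class II loading machinery (1.78) and the light chain segment Igkv15-103 (1.73). The places of Mcpt4 and Fcer1a in this order come from the floor, and without a floor the log2 ratio of Mcpt4 was 2.09, above that of Cd79a.

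The chymase genes lie side by side in a cluster on chromosome 14 together with granzyme genes, so the cluster was read from end to end. RefSeq orders it as Cma1, the pseudogene Mcpt-ps1, Cma2, Mcpt1, Mcpt2, Mcpt9, Mcpt4, Mcpt8, Ctsg and then the granzymes from Gzme to Gzmb, with other pseudogenes and small RNAs left out here. The annotated span of Mcpt9 lies inside that of Mcpt2. Of the 29 annotated genes from Sdr39u1 to Atp12a, which flank the cluster, 15 had a probe set of their own and 7 were measured. In the transgenic pool 4 of these 7 were at least 2-fold higher and 0 lower. They were Gzmb and the members Mcpt1, Mcpt2 and Mcpt4, which were already counted above, so this count is not a separate result.

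Next to the members, a probe set shared by Cma2 and Mcpt9 (1450538_s_at), both chymase relatives, had 1.51 in wild type and 993 in the transgenic pool, at least 50.2-fold higher. Because it is annotated to both genes, it names neither. Signal shared between this probe set and those of Mcpt1 and Mcpt2 was not tested. Mcpt-ps1 had 4.86 and 38.1, at least 1.93-fold higher and under the threshold. Mcpt8, which marks basophils, had 0.485 and 3.21, and Ctsg, the cathepsin G gene of neutrophils and mast cells, had 0.718 and 10.5, both below the floor on each array. The granzyme genes Gzme, Gzmd, Gzmg, Gzmn, Gzmf and Gzmc were below 5 on both arrays. Gzmb at the far end, a protease of cytotoxic lymphocytes, had 2.22 and 55.2, at least 2.79-fold higher. The flanking proton pump gene Atp12a had 927 and 858, a log2 ratio of −0.11. Probe sets differ in how strongly they bind, so these intensities are compared between the arrays and not along the cluster.

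**Figure D3:**
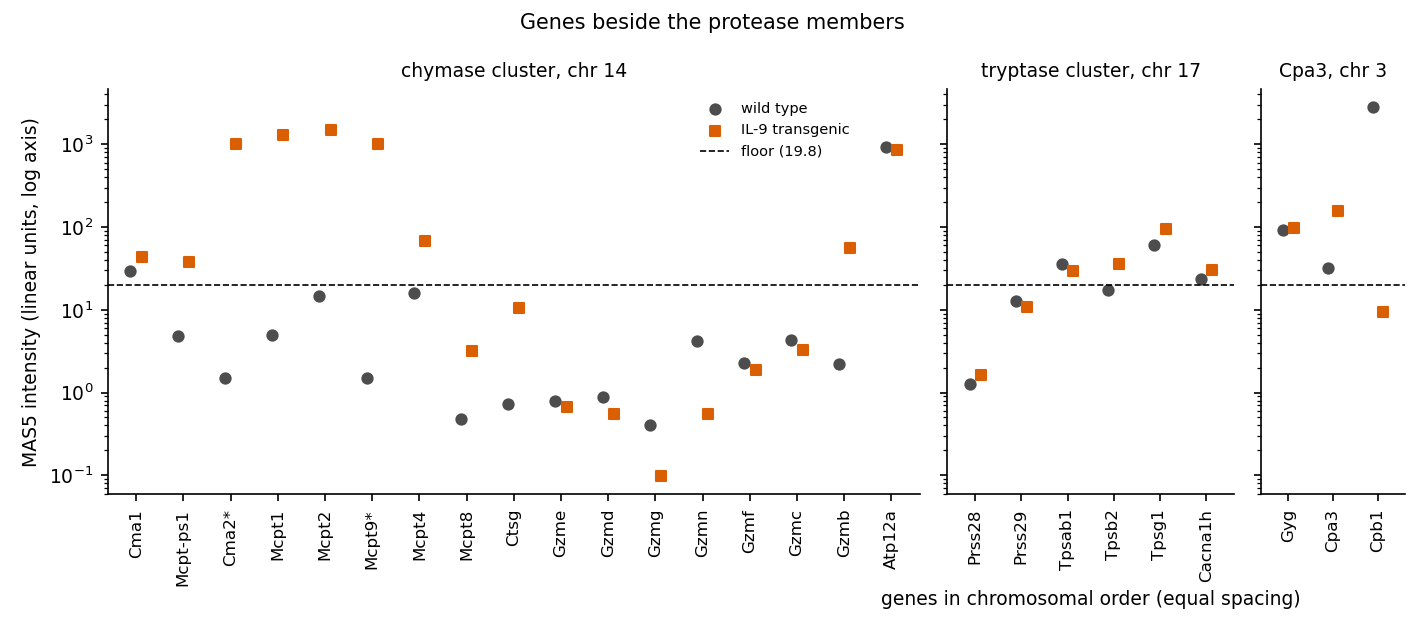
MAS5 intensity (linear units on a log axis) of the genes beside the proteases in chromosomal order at equal spacing, with wild type as circles, the transgenic pool as squares and the floor of 19.8 as a dashed line; the asterisk marks Cma2 and Mcpt9, which share 1 probe set. In the chymase cluster the gap between the arrays is wide from Cma2 to Mcpt9, while Mcpt8 to Gzmc stay below the floor and Cpb1 next to Cpa3 differs in the opposite direction.

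The tryptase genes lie together on chromosome 17. Tpsg1, the membrane-anchored γ-tryptase next to Tpsb2, had 60.2 and 95.7, a log2 ratio of 0.67. Prss28 and Prss29, implantation serine proteases on the other side of Tpsab1, were below the floor on both arrays. Over the list of 12 tryptase-like proteases 9 had a probe set of their own and 4 were measured. All 4 had positive log2 ratios, 0 reached 2-fold, and the median was 0.19. Prss8 (prostasin) had 0.30, Prss30 0.07 and Prss32 0.06.

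Cpa3 lies on chromosome 3 beside Cpb1, which encodes a carboxypeptidase of pancreatic juice. Cpb1 had 2784 in wild type and 9.42 in the transgenic pool, at least 141-fold lower, while Cpa3 was higher. Gyg, on the other side of Cpa3, had 93.2 and 96.4. Of 15 other metallocarboxypeptidase genes 10 had a probe set of their own and 6 were measured. Of these 0 passed 2-fold upward and 2 passed it downward, and the median log2 ratio was −0.50. The 2 lower genes were Cpb1 and Cpa1, another pancreatic enzyme (2761 and 6.04, at least 139-fold). Cpxm2 had a log2 ratio of −0.64 and Agtpbp1 a bound of 0.52. The pancreatic acinar markers moved as a whole, with 9 of 9 measured genes at least 2-fold lower and a summed intensity of 26510 in wild type and 1582 in the transgenic pool; their part in the ratios of the mast cell genes was not tested.

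The proteases depend on other granule components for storage and activation. Of 25 such genes 21 had a probe set of their own and 20 were measured. Of these 16 had positive log2 ratios, 1 was at least 2-fold higher and 0 lower. The median was 0.16 beside 0.04 over all measured genes. The gene at the threshold was Srgn, the serglycin core protein that holds the proteases in the granule, with 210 in wild type and 473 in the transgenic pool (2.25-fold). Serglycin is also made by other blood cells. Rab27b, a GTPase of granule release, had 147 and 248 (log2 ratio 0.75). Ndst2, the sulfotransferase that makes heparin, had 44.6 and 58.3 (0.39). Snap23, a membrane fusion protein of exocytosis, had 140 and 92.5 (−0.60), and its other probe sets had log2 ratios of −0.01 and −0.08. Ctsc, the peptidase that activates chymase and granzyme precursors, had 486 and 526. Hdc, which makes histamine, had 1.93 and 0.797, under the floor in each pool. Ctsc and Hdc lie outside the naming rule and were picked with their values known.

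Of 15 other mast cell identity genes, 10 had a probe set of their own and 7 were measured. In the transgenic pool 1 was at least 2-fold higher (3 with the floor at the 20th percentile) and 0 lower. The median log2 ratio was 0.10, set by the bound of Hpgds (11.54 and 21.15), which lay below the floor in wild type. This median is thus a lower bound, and it was 0.34 with the floor at the 20th percentile and 0.45 at the 60th. Fcer1a, the IgE-binding chain of the IgE receptor, had 7.17 in wild type and 134 in the transgenic pool, at least 6.79-fold higher. Kit, the stem cell factor receptor, had 102 and 139 (log2 ratio 0.45), and its other probe set had a log2 ratio of 0.70. Ltc4s, which makes leukotriene C4, had 18.9 and 22.1 (bound 0.16), and the transcription factor gene Gata2 36.9 and 32.5 (−0.18). Ms4a2 (5.88 and 15.55), Gata1 (6.43 and 0.812) and Tal1 (7.37 and 17.41) did not reach the floor on either array. The summed intensity of the identity genes on the array was 297 in wild type and 480 in the transgenic pool. High ratios among the measured mast cell genes were thus found for some protease genes and Fcer1a, and not for every one of them. The part of other colon cells in the values of Kit and Gata2 was not tested.

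Among 20 genes of mucosal mast cell recruitment and maturation, 13 were measured, 2 were at least 2-fold higher (1 with the floor at the 60th percentile) and 0 lower, and the median log2 ratio was 0.05. The transgene product Il9 was 1 of the 2. Itgae, the integrin αE chain that binds E-cadherin on epithelium, was the other, with 19.9 in wild type, close to the floor, and 44.7 in the transgenic pool (2.25-fold). Itgae is also carried by intraepithelial T cells. Its partner chain Itgb7 was below the floor on both arrays (7.21 and 12.6). Vcam1, an adhesion ligand on vessels, had a log2 ratio of 0.42 on its brightest probe set and −0.36 and −0.07 on its others. The alarmin gene Il33 had 28.6 and 15.9, at least 1.45-fold lower. The receptor gene Il9r and the cytokine genes Il3, Il4 and Il10 did not reach the floor in either pool.

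Inhibitors and targets of these proteases were read next. Of 18 inhibitor genes 12 had a probe set of their own and 9 were measured. Of these 1 was at least 2-fold higher and 0 lower, and the median log2 ratio was 0.17. Serpina3n, a serpin of chymotrypsin-like proteases, had 211 and 427 (2.02-fold), and it was below 2-fold under median scaling, quantile normalisation and loess. Serpina1b had a log2 ratio of 0.57, while its dimmer probe set (13.4 and 43.8) had a bound of 1.15, past 2-fold. Serpinb9 had 0.48 and Slpi, the secretory leukocyte protease inhibitor, 0.35. Of 17 genes for known substrates 16 had a probe set of their own and 11 were measured. Of these 0 were at least 2-fold higher or lower, 3 of 11 had positive log2 ratios and the median was −0.27. Edn1 (endothelin 1, whose precursor chymases cut) had −0.47, Agt (angiotensinogen) −0.34 and Mmp9 a bound of −0.67. The junction gene Ocln, whose protein Mcpt1 can cleave, had 380 in wild type and 315 in the transgenic pool; it too was picked with its value known.

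**Figure D4:**
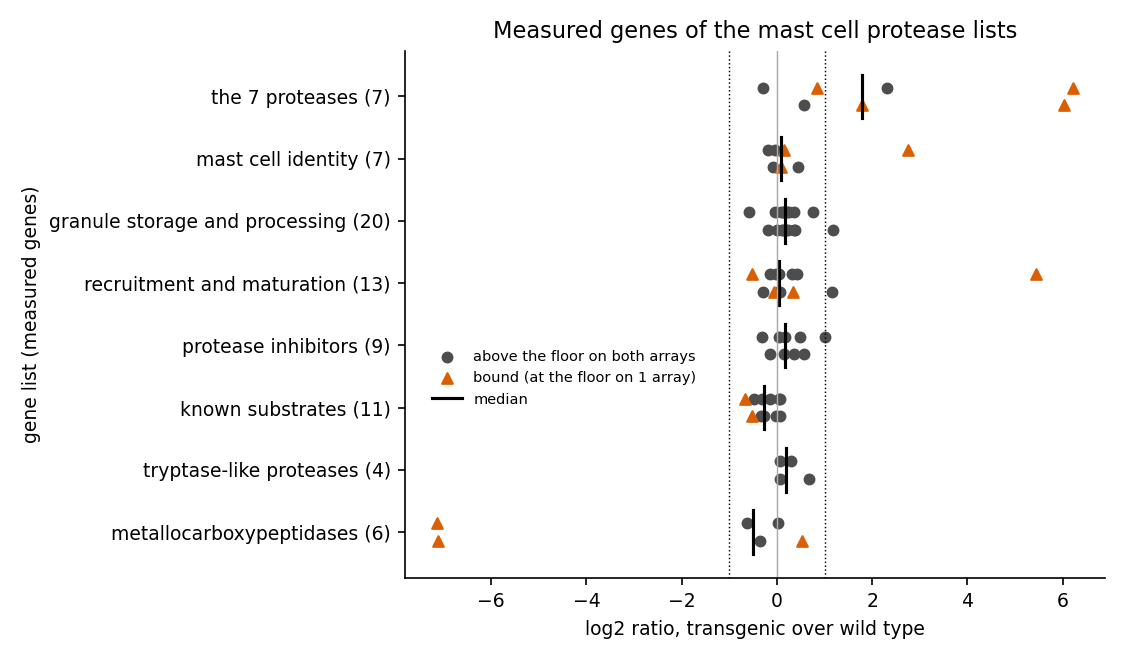
Log2 ratio of transgenic over wild type for the measured genes of each list (number in brackets), with circles for genes above the floor on both arrays, triangles for bounds, vertical bars for medians and dotted lines at 2-fold. The 7 proteases have a median of 1.78, and the medians of the other 7 lists plotted lie between −0.50 and 0.19; lists of other cell types, among them B cells with a median of 1.29, are not plotted.

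Markers of other cells that could carry proteases were read beside these results. Colon epithelium markers were present at similar values (9 of 9 measured, median log2 ratio 0.01), as were smooth muscle markers (6 of 6, median −0.01), so the labelled tissue was found on both arrays. Basophil markers (2 on the array, Mcpt8 and Il3ra), eosinophil markers (3 on the array, Prg2, Epx and Ccr3) and neutrophil markers (6 on the array) were below the floor on both arrays, with summed intensities of 4.68, 5.23 and 20.5 in wild type and 6.49, 14.9 and 19.9 in the transgenic pool. Of 7 cytotoxic T and NK cell markers 5 were measured and 1 was at least 2-fold higher, with a median log2 ratio of 0.50 and a summed intensity of 65.5 and 182. All 5 lay below the floor in wild type and were measured through the transgenic array only. Their ratios are thus lower bounds that could only be positive, and the median is a lower bound too. With the floor at the 20th percentile 4 passed 2-fold upward, with a median of 1.23. Beside Gzmb, Gzma had a bound of 0.91, Klrd1 0.50 and Cd3e 0.08, while Nkg7 and Cd8a were below the floor on both arrays. B cell markers were higher, with 5 of 6 at least 2-fold higher (2 with the floor at the 60th percentile), a median of 1.29 and a summed intensity of 232 and 977, and macrophage markers had a median of 0.07 over 7 genes. The part of lymphocytes in the ratios of Srgn, Itgae and Gzmb was not tested.

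The ratios were recomputed under other scalings and floors. Scaling by the median, quantile normalisation and an intensity-dependent loess moved each log2 ratio of the 7 genes by less than the SD of 0.28 between probe sets. The ratios of genes near or below the floor in wild type moved with the floor. Over all alternatives the log2 ratio ran from 4.56 to 8.03 for Mcpt1, from 4.74 to 6.65 for Mcpt2, from 0.30 to 2.09 for Mcpt4 and from 1.52 to 2.31 for Cpa3. For Tpsb2 it ran from 0.80 to 1.01, for Cma1 from 0.54 to 0.58 and for Tpsab1 from −0.34 to −0.29. Mcpt1, Mcpt2 and Cpa3 stayed above 2-fold and Tpsab1 stayed negative under each alternative that measured them, whereas Mcpt4 was below 2-fold under the highest floor.

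**Figure D5:**
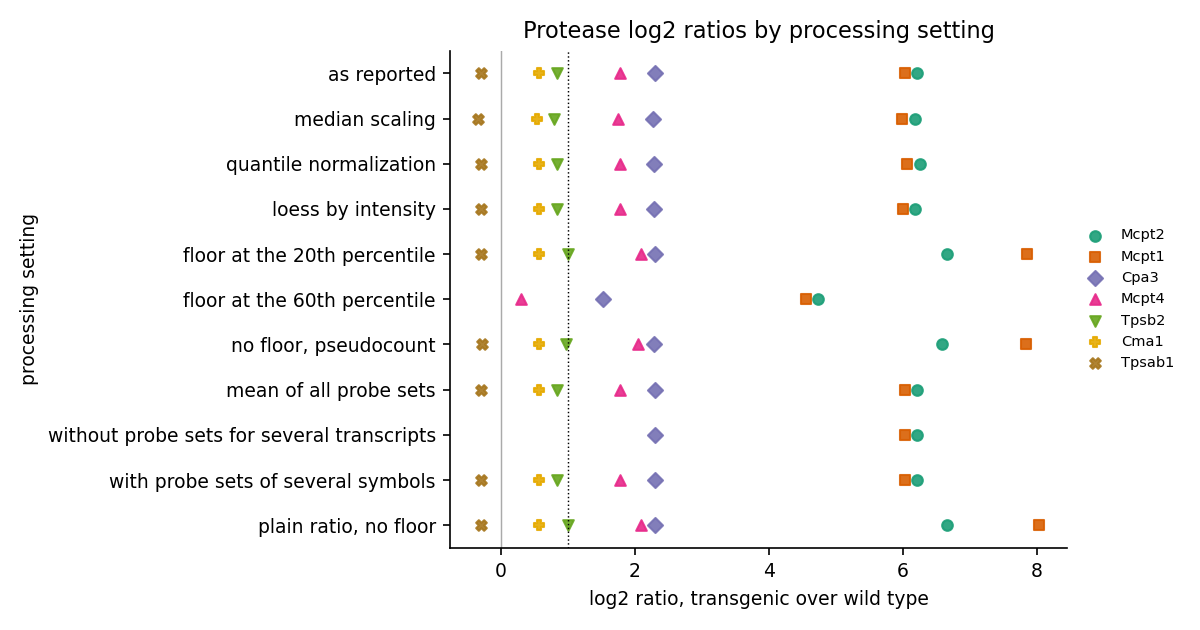
Log2 ratio of transgenic over wild type of each protease gene (marker shape and colour) under the reported processing and the alternatives (vertical axis), with a dotted line at 2-fold. The scalings leave the 7 values nearly in place, the floors shift Mcpt1 between 4.56 and 7.86, and the plain ratio with no floor, chosen after seeing the data, puts it at 8.03; a gene with no marker in a line was not measured under that setting.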

How the data were processed

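Total RNA (5 µg per array) from pooled distal colon was labelled with biotin and hybridised to 1 Affymetrix array per genotype. The authors deposited 1 linear intensity per probe set, and the submitters' processing notes name MAS5 for it, with no version given. The mean intensity without the lowest and highest 2% of probe sets was 100.0 on each array, and no further scaling was applied. The array had 22690 probe sets, 64 of them controls; 20380 had 1 gene symbol, 691 several and 1555 none, from a platform annotation that can be old. Of the single-symbol probe sets 20364 were found in RefSeq by gene identifier, with 0 symbols changed. The brightest single-symbol probe set stood for a gene. No genome build is stated for the probes, so RefSeq (GRCm38.p6) gave names, neighbours and promoter sequence only.

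Named were every member, up to 4 measured genes with the largest ratios in size per list, the 2 genes next above and below each member past 2-fold, and other cells' markers below the floor. The genes of the 3 loci, and Ms4a2, Gata1, Tal1, Itgb7, Il9r, Il3, Il4, Il10, Ctsc, Hdc and Ocln, lie outside this rule and were chosen after their values were seen. Members and lists were chosen with earlier results of these data known. Upstream sequences were aligned end to end with Biopython 1.88 (match 2, mismatch −1, gap opening −3, extension −0.5). The alternatives were other scalings (median, quantile, loess with a span of 0.3), other floors or none, other choices of probe set and a 3-fold threshold. The ratio calculation was tested on simulated data. Python 3.11.15, numpy 2.4.6 and pandas 2.3.3 were used.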

Additional observations from a re-analysis of the deposited data

How the results depend on the processing

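With 1 array per genotype no ratio has a replicate check, and signal over background limits those of Mcpt1, Mcpt2, Mcpt4 and Tpsb2, which lay under the floor in wild type. The count of protease genes at least 2-fold higher was 4 as reported and between 3 and 5 under each alternative run, and the count at least 2-fold lower was 0 in each. It was 5 with the floor at the 20th percentile, where Tpsb2 joined, and 3 with the floor at the 60th percentile and without probe sets that read several transcripts. Their median log2 ratio, 1.78 as reported, was 2.09 with the floor at the 20th percentile, 3.04 with the 60th (4 genes measured), 6.03 without probe sets for several transcripts (3 genes measured), and 2.09 as a plain ratio with no floor, an alternative chosen after seeing the data. The counts over all genes moved more: 202 higher and 258 lower with the 20th percentile, 29 and 27 with the 60th, 655 and 800 with a pseudocount of 0.735 and no floor, 820 and 1021 as plain ratios, and 13 and 21 at 3-fold, against 64 and 51 as reported. The number of measured genes behind these counts also changed. It was 10809 with the 20th percentile, 5975 with the 60th and 12393 with no floor, against 8346 as reported. All 4 protease genes past 2-fold were also past 3-fold. No paired analysis was possible because each group has 1 array.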
